A study of Homo sapiens with 23 samples.

Results

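The clustered protocadherin locus on the long arm of chromosome 5 was described here in NCI-H23, an established human non-small cell lung cancer cell line, from lists of chromatin immunoprecipitation sequencing (ChIP-seq) peaks. Its members were all peaks of any target whose summit lay in chr5:140160001-140900000 (build hg19), a stretch of 740 kb, and 1042 of the 2889028 deposited peaks did so. The lists covered 11 targets with 2 replicate libraries each: H3K9me3, H3K27me3, H3K36me3, H3K4me3, H3K4me1, the acetylation marks H3K27ac, H4K5ac, H4K8ac, H4K12ac and H4K5acK8ac (histone H4 acetylated at both lysines), and BRD2, a protein of the BET family whose bromodomains bind acetylated histone tails. All libraries came from the same line. The treatment protocol names the BET inhibitor JQ1 and its solvent DMSO, no label ties either to a library, and no treatment was compared. The only other sample was 1 input library, not analysed here. No label says whether replicates were separate cultures, so the spread between them may be technical. The lists hold no read numbers, so depth is unknown.

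Clustered protocadherins are cell surface proteins of the cadherin family, best known from neurons, where single cells express different small sets of them from alternative promoters, each with its own variable first exon. The promoters of the alpha and gamma clusters splice to constant exons shared within the cluster, while the beta genes stand alone. H3K9me3 is a mark of heterochromatin, H3K27me3 of Polycomb-silenced chromatin, H3K36me3 of transcribed gene bodies, H3K4me3 of promoters and H3K4me1 with H3K27ac of enhancers. The RefSeq table of assembly GRCh38.p14, used for names and order only, lists 53 protein-coding genes of this family side by side, with 15 in PCDHA, 16 in PCDHB and 22 in PCDHG. SLC25A2, a mitochondrial amino acid carrier, and TAF7, a subunit of the general transcription factor TFIID, stand between PCDHB and PCDHG. ZMAT2 precedes the clusters and DIAPH1, a regulator of actin filaments, follows them. No gene annotation of hg19 was used here, so no peak was assigned to a gene, and the identity of the line was not checked against marker genes.

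A promoter sequence was listed for 47 of the 53 genes, and the sequences below show what these alternative promoters share and where they differ. Each is from RefSeq, GRCh38.p14, plus strand, from 250 bases before to 50 bases after the gene start, and runs 5′ to 3′; capitals mark an 8-base word found in the most promoters of its cluster, searched on both strands.
PCDHA1: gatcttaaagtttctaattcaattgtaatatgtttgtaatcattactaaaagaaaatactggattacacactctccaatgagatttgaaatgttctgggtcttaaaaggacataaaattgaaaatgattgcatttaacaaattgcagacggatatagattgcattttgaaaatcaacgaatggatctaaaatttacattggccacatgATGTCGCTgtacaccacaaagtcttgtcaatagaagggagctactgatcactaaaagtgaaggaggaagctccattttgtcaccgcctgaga
PCDHAC2: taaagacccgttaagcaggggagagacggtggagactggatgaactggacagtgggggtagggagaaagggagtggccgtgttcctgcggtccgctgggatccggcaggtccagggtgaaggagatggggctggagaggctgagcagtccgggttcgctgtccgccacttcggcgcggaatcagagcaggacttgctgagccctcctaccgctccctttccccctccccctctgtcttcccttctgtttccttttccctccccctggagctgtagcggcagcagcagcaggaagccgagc
PCDHB1: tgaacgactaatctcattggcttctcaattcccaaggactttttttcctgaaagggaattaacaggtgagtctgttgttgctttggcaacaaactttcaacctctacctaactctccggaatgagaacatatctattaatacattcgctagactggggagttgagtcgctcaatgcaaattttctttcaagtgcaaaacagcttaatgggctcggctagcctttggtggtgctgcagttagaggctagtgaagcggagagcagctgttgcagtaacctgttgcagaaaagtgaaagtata
PCDHB15: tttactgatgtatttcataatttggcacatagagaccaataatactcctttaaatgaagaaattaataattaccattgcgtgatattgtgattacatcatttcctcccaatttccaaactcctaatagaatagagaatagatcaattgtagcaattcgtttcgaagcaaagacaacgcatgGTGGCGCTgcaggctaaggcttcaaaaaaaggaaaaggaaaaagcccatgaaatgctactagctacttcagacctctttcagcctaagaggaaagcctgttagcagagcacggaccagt
PCDHGA1: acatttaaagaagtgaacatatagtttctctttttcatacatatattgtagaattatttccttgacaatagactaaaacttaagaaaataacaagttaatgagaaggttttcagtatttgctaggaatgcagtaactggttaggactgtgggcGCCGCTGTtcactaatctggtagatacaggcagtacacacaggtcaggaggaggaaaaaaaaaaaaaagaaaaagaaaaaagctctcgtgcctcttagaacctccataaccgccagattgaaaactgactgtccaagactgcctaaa
PCDHGC4: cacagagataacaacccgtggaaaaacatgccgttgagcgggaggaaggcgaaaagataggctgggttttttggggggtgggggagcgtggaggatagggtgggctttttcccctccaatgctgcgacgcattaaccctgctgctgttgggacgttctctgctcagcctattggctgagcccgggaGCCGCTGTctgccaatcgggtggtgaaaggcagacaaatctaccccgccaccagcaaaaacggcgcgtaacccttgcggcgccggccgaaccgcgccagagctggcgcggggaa
The word was ATGTCGCT for PCDHA, in 9 of 13 promoters and 0.234% of all 35116 promoters of the table; GATGTCGC, which overlaps it, was found in as many PCDHA promoters and in 0.339% of all. It was GTGGCGCT for PCDHB, in 13 of 14 promoters and 1.15% of all; the overlapping GGTGGCGC was found in as many PCDHB promoters and in 2.23% of all. Of each tied pair the word rarer in all promoters was printed. It was GCCGCTGT for PCDHG, in 11 of 20 promoters and 1.63% of all. No promoter of one cluster held the printed word of another. The 3 printed words contain CGCT, and the tied words do not. PCDHAC2 and PCDHB1, printed above with no capitals, lacked the word of their cluster, as did PCDHA9, PCDHA11 and PCDHAC1. CGCT, the core of the conserved element known from these promoters, stood on either strand in 46 of 47 (97.9%), against 70.0% of all promoters. CCCTC, a short word within the motif of the insulator protein CTCF, stood in 12 of 47 (25.5%), against 71.2% of all. The median number of CpG dinucleotides was 7 in the clustered promoters and 14 in all promoters. A word match is a description of the sequence, and binding was not measured.

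The locus was rich in H3K9me3 and in short H3K4me3 regions, and its H3K36me3 coverage was below the average of the genome and of the flanks. H3K9me3 peaks covered 23.5% of the locus in replicate 1 and 30.3% in replicate 2, compared with 4.16% and 5.71% of the rest of the genome, a ratio of 5.47 ± 0.24 (SD, n = 2). The stretches of equal length on either side had less than the locus in both replicates, 3.11% on average. H3K27me3 covered 5.54% and 7.24% of the locus, a ratio to the genome of 1.38 ± 0.0983 (SD, n = 2). This small excess turned into a deficit when only stronger peaks were kept, at 0.687 for peaks with a −log10 q of at least 5 and 0.304 for the 10000 strongest peaks of each list. H3K36me3 covered 2.40% and 2.19%, a ratio of 0.337 ± 0.0135 (SD, n = 2), whereas the flanks had 22.2%. Low H3K36me3 was common, since 50.7% of windows of this length over the genome had at least the coverage of the locus in both lists. Both replicates fell on the same side for each of these marks. With 2 libraries against 2 an exact test cannot go below p = 0.333, and these ratios are given without a test.

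H3K4me3 covered 2.98% and 2.87% of the locus, 2.12 ± 0.0546 times the share of the genome (SD, n = 2) but 0.610 times that of the flanks, which held 4.79%. With only the 10000 strongest peaks per list that ratio to the genome was 0.358, below 1. By number of peaks the ratio to the genome was 4.38, since peaks here were narrow. The 5 acetylation marks together covered 0.722 ± 0.0278 times the genome's share (SD, n = 2) and 0.303 times that of the flanks. Among them H4K5acK8ac was at the level of the genome, with a ratio of 1.01 ± 0.10 (SD, n = 2), and H4K8ac was lowest at 0.422 ± 0.0677 (SD, n = 2). The replicates of H4K8ac covered 1.50% and 0.493% of the locus, and 23.4% of the peaks in the second list had a q above 0.05. BRD2 covered 0.500% and 0.521%, a ratio of 0.944 ± 0.128 (SD, n = 2), from 15 peaks in replicate 1 and 8 in replicate 2. Of these BRD2 peaks 12 and 3 had a q above 0.05, and the ratio was 0.746 without such peaks.

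**Figure D1:**
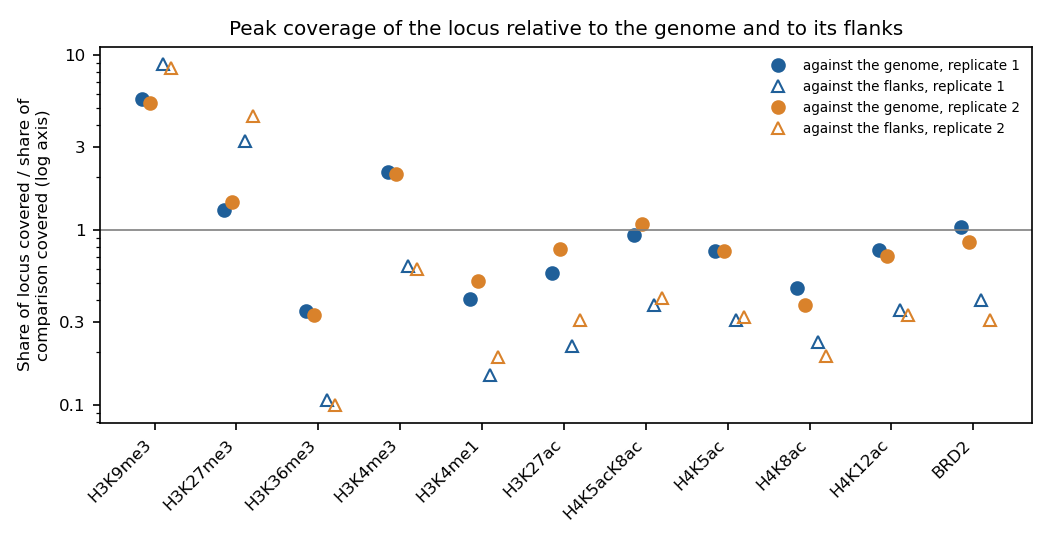
Peak coverage of the locus divided by that of the rest of the genome (filled circles) and of its flanks (open triangles), for each target and replicate, on a log axis with a line at 1. H3K9me3 stands above 1 against both, at 5.47 and 8.68 on average, and H3K4me3 is above 1 against the genome and below 1 against the flanks.

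The H3K9me3 coverage was made of many peaks of ordinary height. The lists had 232 and 258 H3K9me3 peaks in the locus, with a median fold enrichment over the peak caller's local background of 3.97 and 3.68, against 3.64 and 3.22 in the whole lists. Fold enrichment and q are the authors' values. Only 9 and 6 of these peaks were among the 10000 strongest of their list, or 3.88% and 2.33%, compared with 4.84% and 4.19% of all peaks in the lists. Restricted to those strongest peaks the ratio to the genome was 3.86, and with peaks of −log10 q of at least 5 it was 6.66.

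Along the locus H3K9me3 formed 2 blocks with a gap between them. In bins of 50 kb counted from the start of the locus, coverage in replicates 1 and 2 was 40.0% and 45.9% in bin 1 and declined to 1.1% and 4.8% in bin 4. Bin 5, at 200 to 250 kb, held 0.8% in replicate 1 and none in replicate 2. Coverage was higher again from bin 6 on, with 73.0% and 81.9% in bin 10, at 450 to 500 kb, and fell to 0.0% and 0.7% in bin 15 at the far end. The longest run of H3K9me3 called in both lists, with gaps of up to 5 kb joined, was chr5:140594965-140756064, 161.1 kb long and 49.2% covered. This run contained 6 H3K4me3 regions. The next run, at the very start of the locus, was 29.0 kb long within it. This run was cut at the boundary, since its first H3K9me3 region began outside, at chr5:140158174. H3K27me3 was lower in most bins and followed H3K9me3 only in part. In bin 6 of replicate 1 H3K27me3 was the higher, with 9.02% beside 7.93% of H3K9me3. H3K27me3 covered 16.8% and 14.9% of bin 1 and 12.3% and 20.6% of bin 10, with none in bins 4 and 5. In bin 11, where H3K9me3 covered 53.9% and 68.3%, H3K27me3 covered 1.80% and 2.75%, and in bin 13 it covered 2.42% and 1.08% beside 33.4% and 46.7% of H3K9me3. Between 61.4% and 78.4% of the H3K27me3 bases in the locus also lay in H3K9me3 peaks, over the 4 combinations of libraries, compared with 21.4% to 30.1% in the genome. H3K9me3 itself covered 26.9% of the locus and 4.94% of the rest of the genome on average. These shares therefore do not show a closer overlap of the marks in the locus.

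The remaining marks were spread differently along the locus. H3K27ac covered 7.7% and 14.6% of bin 5, and H3K4me1 was strongest there, in a region called in both lists at chr5:140380725-140385033 with folds of 9.79 and 13.5. H3K36me3 was largely limited to bin 11, at 500 to 550 kb, with 11.8% and 11.3%, and bin 15, with 20.9% and 18.4%. Bin 15 was the only bin with no H3K4me3 peak in either list. It held both H3K27ac regions and all 4 H3K4me1 regions of the locus that were called in both lists away from H3K4me3, among them H3K27ac at chr5:140893308-140895847 with folds of 7.32 and 4.88. BRD2 reached its highest coverage in bin 11, at 1.9% and 2.3%.

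**Figure D2:**
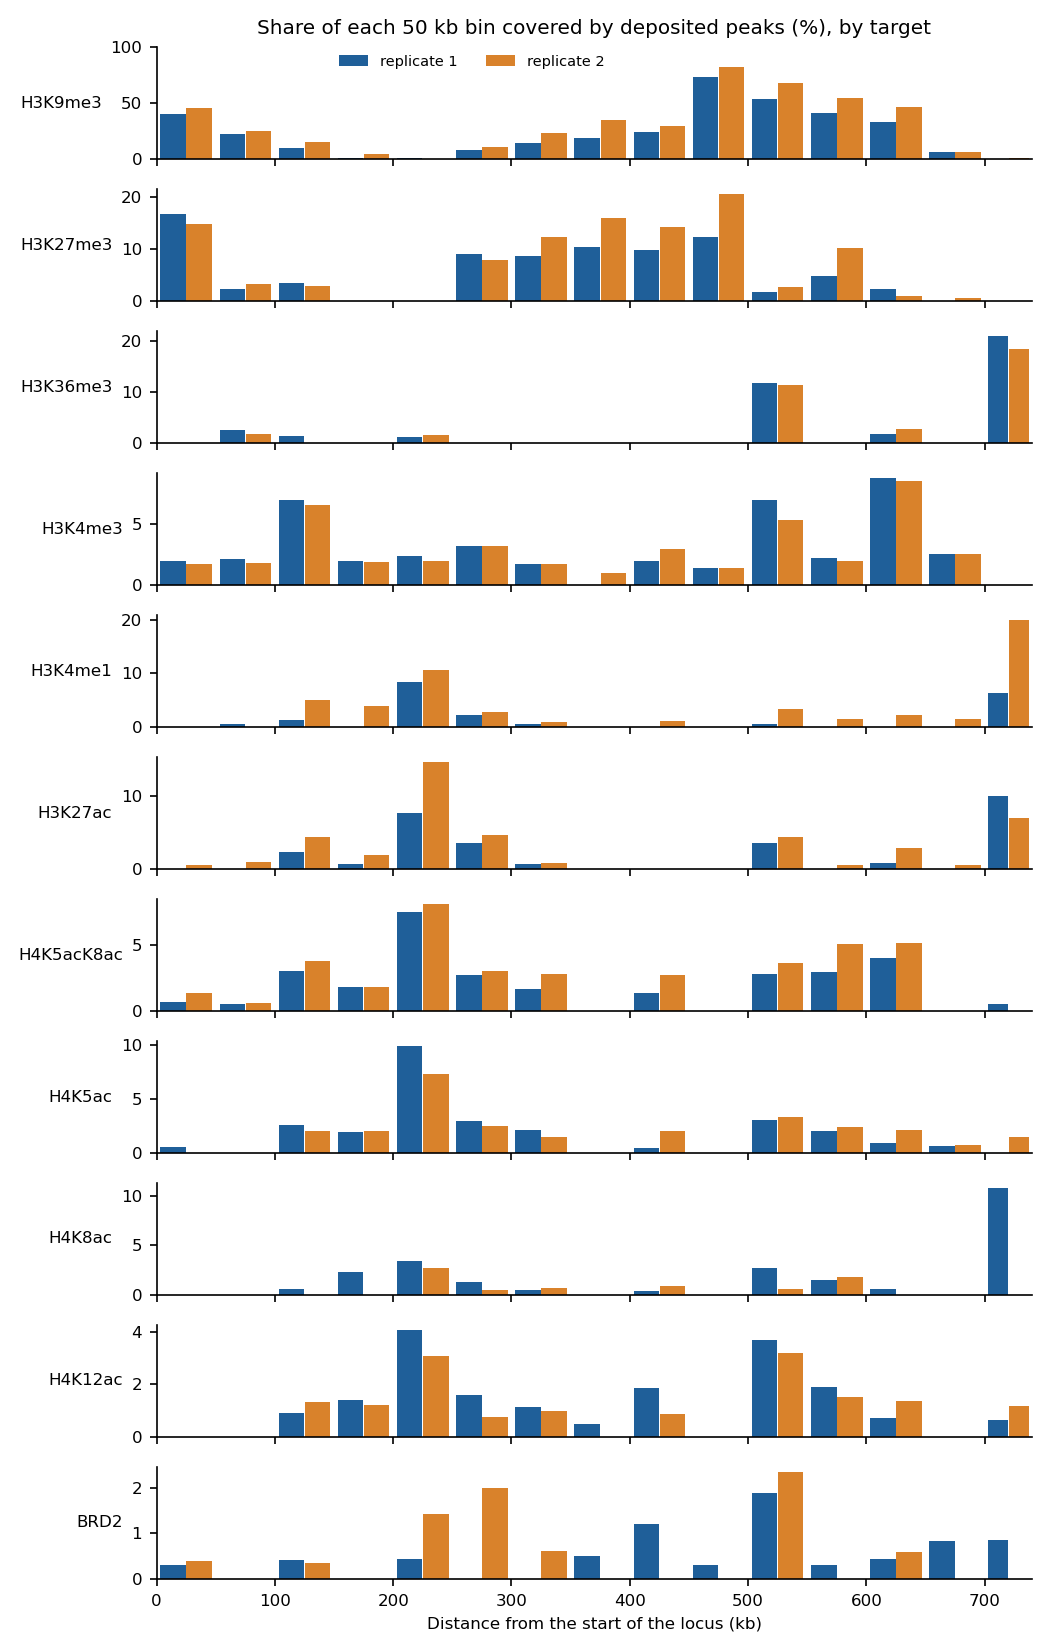
Percent of each 50 kb bin covered by deposited peaks (vertical axes, scaled per target) against distance from the start of the locus in kb, for 11 targets, with bars for replicates 1 and 2. H3K9me3 is high at the start and from 300 to 650 kb with a maximum of 73.0% and 81.9% in bin 10, H3K27ac peaks in bin 5 and at the far end, and H3K36me3 is seen mainly in bins 11 and 15.

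Each target was compared with the mean of the other 10 in every 50 kb bin of the genome with limma, on log2(percent covered + 1) after centring each library, and all 15 bins of the locus were tested. H3K9me3 was higher in 12 bins and lower in 2 at an adjusted p of at most 0.05, where 41.5% and 40.5% of all 38146 bins were called higher and lower. Its difference was largest in bin 10, at 5.02 on the log2 scale (SE 0.23, limma adjusted p = 1.48e-13). It was lower in bin 5, by −2.45 (SE 0.26, adjusted p = 4.04e-08), and in bin 15, by −1.88 (SE 0.47, adjusted p = 0.00105). Bin 4 did not pass, with a difference of 0.20 (SE 0.33). The median difference for H3K9me3 was 2.95 over the locus bins and 0.04 over all bins. Bins under 1% mean coverage over all libraries were left out, and this mean included the target compared. Bins 2 and 14 passed only through their H3K9me3, so their calls for it were not independent of the filter. Bin 14 also needed its H3K4me3 to pass. With no filter H3K9me3 was higher in 12 of 15 bins, against 38.7% of all bins.

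H3K4me3 was higher in 10 bins and lower in none, against 25.8% and 16.7% of all bins, with its largest difference in bin 13 (2.15, SE 0.28, limma adjusted p = 5.05e-06). H3K27me3 was higher in 8 and lower in 6, against 39.7% and 51.0%. H3K36me3 was higher in bins 11 and 15 alone and lower in 11, against 30.6% and 64.7%, so its share of lower bins was near that of the genome. H3K27ac was higher in bins 5 and 15 and lower in 7, against 29.7% and 45.7%. H4K5acK8ac was higher in bins 5, 12 and 13 and lower in bins 8, 10 and 14, against 25.6% and 31.7%. Without H4K5acK8ac replicate 1 or replicate 2 the lower bins numbered 1, and 6.87% or 3.67% of all bins were called lower. Bins 12 and 13 were thus called higher for both H3K9me3 and H4K5acK8ac, each relative to the average of its own libraries over bins. In percent of bases H4K5acK8ac covered little, with 2.95% and 5.12% of bin 12 and 4.06% and 5.15% of bin 13. H3K9me3 covered 41.6% and 54.6% of bin 12 and 33.4% and 46.7% of bin 13. H3K27ac was lower in bin 12, by −1.58 (SE 0.25, limma adjusted p = 4.00e-05). H3K4me1 was higher in the same pair of bins as H3K27ac, 5 and 15, and lower in 10, against 32.6% and 38.4%. H4K5ac was higher in bin 5 and lower in 4, against 24.2% and 32.6%. H4K8ac was higher in none and lower in 10, against 22% and 29.7%, and H4K12ac was higher in none and lower in 3, against 10.9% and 6.31%. Bin 5 was thus called higher for H3K4me1, H3K27ac, H4K5ac and H4K5acK8ac and lower for H3K9me3, H3K27me3 and H3K36me3. For BRD2 no bin was called by limma in either direction, against 5.45% and 8.67% of all bins, and 1 bin was higher and 1 lower at an unadjusted p under 0.05. At that level H3K4me3 was lower in 1 bin, and H4K8ac and H4K12ac were again higher in none. Of bins simulated with a log2 shift of 1 for H3K9me3, 40% were recovered, and of those with a shift of 2, 94%. Only 100 bins per shift differed in the simulation, whereas most bins of the data were called for H3K9me3. These rates therefore do not carry over to the data.

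Within the locus 22 H3K4me3 regions were called in both lists, among 20506 in the genome, or 29.7 per Mb compared with 6.82 per Mb. They were shorter and weaker than others, with a median length of 892.5 bp against 1795 bp and a median fold of 34.5 against 68.6. Their mean folds ran from 3.07 to 101. Region 13, chr5:140698972-140701190, was the highest, with folds of 94.8 and 107. Region 4, chr5:140305309-140307138, had 68.5 and 80.9, and region 21, chr5:140800461-140801532, had 65.0 and 74.8. Region 5, chr5:140308731-140309015, was the lowest with 3.33 and 2.82. The replicates kept these 4 regions in the same order.

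Toward the start of the locus stood regions 1 to 3, at chr5:140186466-140187334, chr5:140248406-140249321 and chr5:140261452-140262470, and regions 6 to 9, at chr5:140345504-140346441, chr5:140381067-140382071, chr5:140419332-140420853 and chr5:140464074-140464919. These 7 had folds between 24.5 and 59.5. Regions 10 to 12, at chr5:140562021-140562359, chr5:140602780-140603428 and chr5:140624828-140625480, were weak, with folds between 3.55 and 20.5. Regions 14 to 16, at chr5:140705766-140706150, chr5:140709981-140710506 and chr5:140729597-140730069, had folds between 5.30 and 16.0. Region 17, chr5:140762105-140763211, and region 20, chr5:140792427-140793590, were strong, with folds from 48.2 to 63.8. Regions 18 and 19, at chr5:140767190-140767622 and chr5:140777397-140777851, lay between them with folds from 7.61 to 13.3. Region 22, chr5:140855030-140856286, had 37.4 and 34.4.

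Counted over both lists of a target, a smaller share of these regions carried acetylation, H3K4me1 or BRD2 than of all H3K4me3 regions, and a larger share carried H3K9me3. Both H3K9me3 lists overlapped 5 of 22 (22.7%, Wilson 95% interval 10.1% to 43.4%), where 2.50% of all H3K4me3 regions did so. These were regions 12, 13, 17, 19 and 21. The count was 2 of 22 (9.09%, against 0.888% of all) when at least 50% of the region had to be covered. With peaks of −log10 q of at least 5 it was 1 of 21 (4.76%, against 1.17% of all). H3K9me3 covered 26.9% of the locus and 4.94% of the rest of the genome on average, while 15.9% of the H3K4me3 bases in the locus lay in H3K9me3 peaks. The larger share of overlapped regions therefore does not show that H3K9me3 favoured them within the locus. None of the 22 regions was overlapped by both H3K27me3 lists, against 8.45% of all regions. H3K27ac was present in both lists at 8 (36.4%), against 77.4%, and H3K4me1 at 6 (27.3%), against 83.8%. These counts were set by replicate 1: H3K27ac overlapped 8 regions in replicate 1 and 15 in replicate 2, and H3K4me1 overlapped 6 and 16. H4K5acK8ac was present at 15 (68.2%), against 84.4%, just above its Wilson interval of 47.3% to 83.6%. H4K5ac and H4K12ac were each present at 12, against 82.6% and 78.0%, and H4K8ac at 7, against 54.9%. BRD2 was present at 3 (13.6%), against 50.4%, in regions 4, 7 and 13. The intervals treat regions as independent and cover counting error only.

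**Figure D3:**
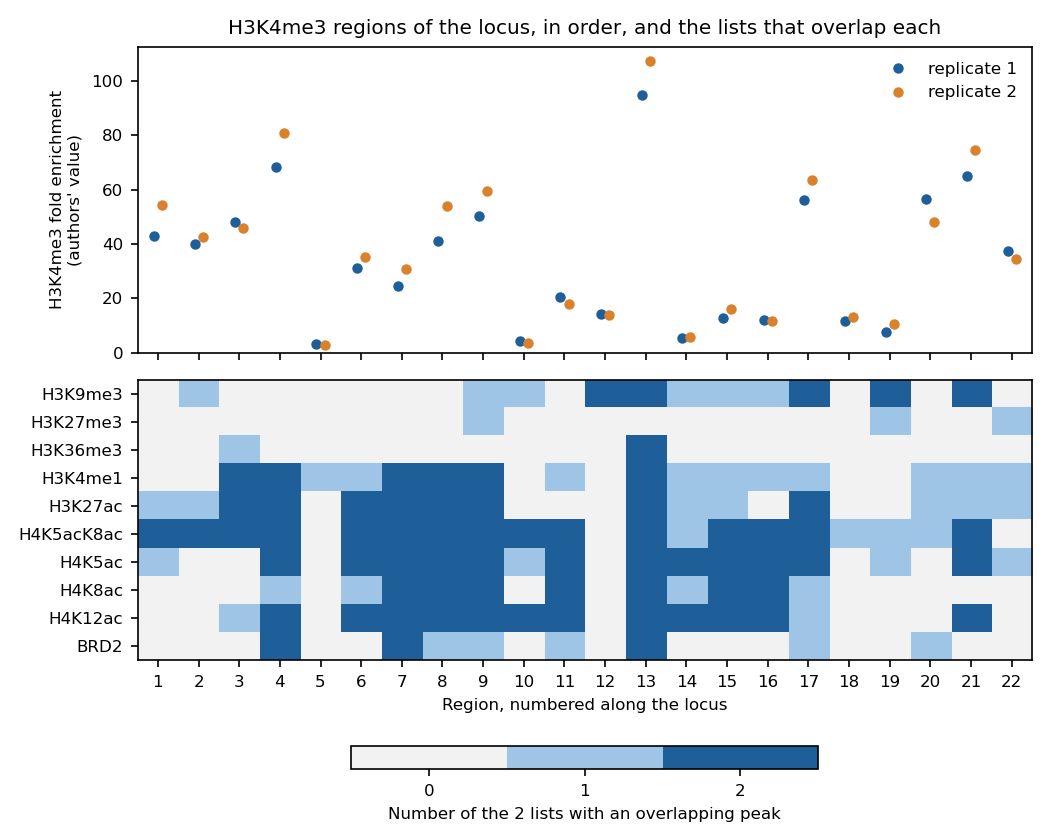
Upper panel: fold enrichment of the 22 H3K4me3 regions in replicates 1 and 2, in order along the locus. Lower panel: for each other target, whether a peak of 0, 1 or 2 of its lists overlaps the region; region 13 has both lists of all targets except H3K27me3, and region 12 has H3K9me3 alone.

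Weaker H3K4me3 regions carried less acetylation throughout the genome, so shares were also read within bands of fold. At a fold of 50 or more, H3K27ac was present in both lists at 4 of 6 locus regions, against 93.0% of all regions in that band, and BRD2 at 2 of 6, against 66.4%. H4K5acK8ac was present at 5 of 6, against 96.2%, and H3K9me3 at 3 of 6, against 1.87%. These 3 were regions 13, 17 and 21, and the H3K9me3 contact was partial. H3K9me3 bases called in both lists lay only at the lower end of region 13. They were 22 bp long in region 21 and absent from region 17, where each list overlapped at other bases. At folds from 20 to 50, H3K27ac was present at 4 of 7 against 59.7%, and BRD2 at 1 of 7 against 32.2%. In this band H4K5acK8ac was present at 6 of 7 against 74.8%, and H3K9me3 at 0 of 7 against 2.66%. Under 20, H3K27ac was present at 0 of 9 against 44.4%, and H4K5acK8ac at 4 of 9 against 57.1%. H3K9me3 was present there at 2 of 9 against 4.18%, and BRD2 at 0 of 9 against 16.9%. In the middle band the H3K27ac share was close to the background. With 6 to 9 regions per band only large differences can be seen.

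Acetylation was uneven among the 22 regions. Regions 7, 8, 9 and 13 had all 5 acetylation marks in both lists, 12 regions had some of them in both lists, and 6 had none in both. Of these 6, regions 5 and 12 were free of acetylation peaks in every list, while regions 18, 19, 20 and 22 had 1 or 2 marks in a single list each. Region 20, with H3K4me3 folds of 56.7 and 48.2, had H3K27ac in replicate 2 alone and H4K5acK8ac in replicate 1 alone. Region 9, with all 5 marks in both lists, had H3K4me3 folds of 50.5 and 59.5. Regions 10, 11, 15, 16 and 21 had H4K5acK8ac and H4K12ac in both lists with H3K27ac in at most 1. Of the H4K5acK8ac peaks in the locus, 85.7% and 70.8% lay on H3K4me3 peaks, compared with 31.7% and 32.1% in the whole lists. For H3K27ac the shares were 50.0% and 61.5%, compared with 15.7% and 20.4%.

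Region 13 stood apart by holding the strongest peak of the locus in every list of H3K4me3, BRD2 and the 5 acetylation marks, all with summits near 540 kb from the locus start. H3K27ac had folds of 79.4 and 67.5 there, H4K5acK8ac 30.9 and 28.2, and H4K5ac 14.5 and 14.1. BRD2 had folds of 9.74 and 20.8 and stood at rank 738 by q in both lists. The strongest H3K36me3 peaks, with folds of 12.8 and 11.5, had summits at 538 kb and overlapped the same region. H3K9me3 peaks with folds of 8.26 and 9.20 also overlapped it, and H3K9me3 covered 46.2% and 65.0% of the bases within 5 kb of its centre. In bases called in both lists, H3K9me3 ended at chr5:140699621 and H3K36me3 at chr5:140699578, toward the lower end of the region. BRD2 and the H4 acetylation marks began past both, at chr5:140699810 or later, while H3K27ac began at chr5:140699375. The strongest H3K9me3 peaks of the locus were elsewhere, at 480 kb, with folds of 8.59 and 9.43. At regions 4 and 7 the BRD2 peaks of replicate 1 had a −log10 q of 0.242, well under the 1.3 that corresponds to a q of 0.05, so region 13 was the only one with BRD2 past that level in both lists.

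H3K9me3 lay on or near most of the H3K4me3 regions of the locus. Both lists had H3K9me3 within 5 kb of the centre at 16 of 22 regions (72.7%), against 16.4% of all H3K4me3 regions. The 16 include the 11 regions that at least 1 H3K9me3 list overlapped. On average 21.7% and 28.9% of the bases within 5 kb were covered in replicates 1 and 2, compared with 2.40% and 3.11% around other regions. The whole locus was covered to 23.5% and 30.3%, so H3K9me3 was no denser near these regions than in the locus at large. In the 500 bp just after the centre coverage was 8.02% and 18.2%. In steps of 500 bp it was uneven: the highest, from 1 to 1.5 kb after the centre, had 48.7% and 58.6%, its mirror before the centre 18.0% and 22.4%, and the step from 2.5 to 3 kb after it 6.24% and 19.6%. Other H3K4me3 regions had 1.03% and 1.19% just after the centre and 3.63% and 4.63% in the last step, from 9.5 to 10 kb. H3K27ac was highest at the centre, with 24.8% and 43.6% in the 500 bp before the centre, compared with 67.9% and 72.7% around other regions.

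**Figure D4:**
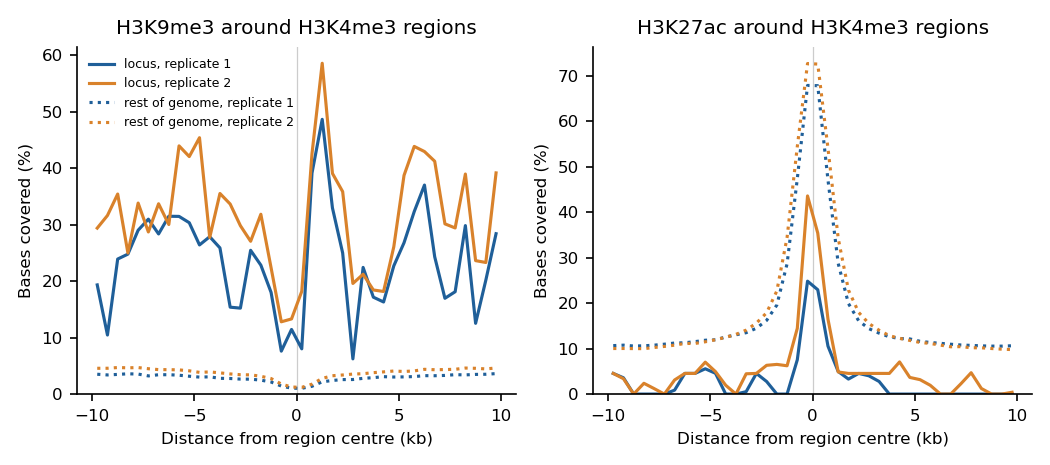
Percent of bases covered by H3K9me3 (left) and H3K27ac (right) against distance in kb from the centre of H3K4me3 regions, in steps of 500 bp, for the 22 regions of the locus (solid) and the 20484 others (dotted), replicates 1 and 2. H3K9me3 is higher around the locus regions at every distance and uneven, and H3K27ac is lower.

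The pairing of broad H3K9me3 with many H3K4me3 regions was set against windows of the same length tiled over the genome. Of 4026 windows, 86 (2.14%) had at least the H3K9me3 coverage of the locus in both lists, and 18 of the other 85 were on chromosome 19. At least 22 H3K4me3 regions were found in 107 windows (2.66%). Both were met by 2 windows (0.0497%), the locus and chr19:57720001-58460000. That window had 28 H3K4me3 regions and 51.7% and 62.3% H3K9me3 coverage, and H3K36me3 covered 44.1% and 43.1% of it, compared with 2.40% and 2.19% of the locus. Windows with at least the coverage of the locus in both lists were far more frequent for the other marks. They made up 21.9% of windows for H3K27me3, 50.7% for H3K36me3, 11.7% for H3K4me3, 48.3% for H3K4me1 and 33.5% for H3K27ac. For the H4 marks they made up 27.8% (H4K5acK8ac), 34.7% (H4K5ac), 42.1% (H4K8ac) and 34.6% (H4K12ac), and for BRD2 30.7%. The thresholds were the values of the locus itself, so the count describes its place in the genome and is no test.

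**Figure D5:**
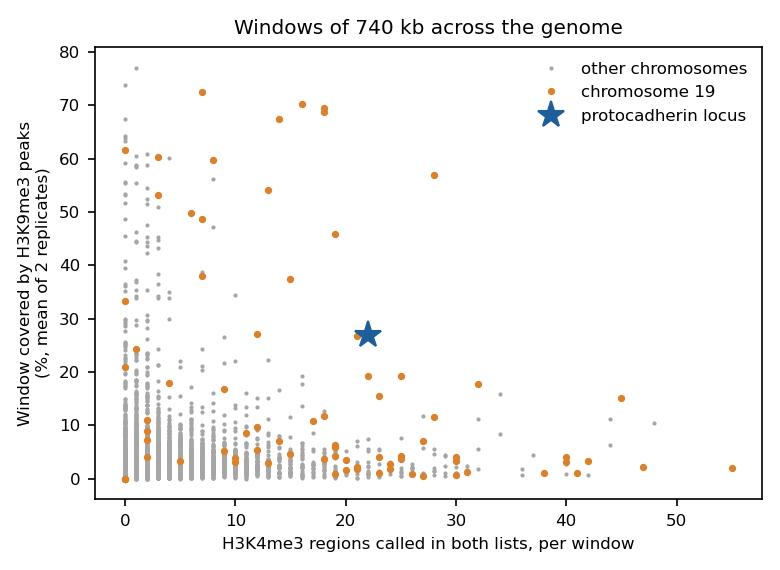
Percent of each 740 kb window covered by H3K9me3 peaks (mean of 2 replicates) against the number of H3K4me3 regions called in both lists. The protocadherin locus, with 22 regions, lies away from most windows, and the window with 28 regions on chromosome 19 is the other one at or above it on both axes in both lists.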

How the data were processed

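Peaks were called by the authors for each library; the submitters' processing notes name BWA, MACS2 and build hg19, with no version or setting. The deposited lists give, per peak, a fold enrichment (a ratio), a −log10 p, a −log10 q, a summit offset and an integer score, derived by the peak caller from the −log10 p and left out here. No list was identical to another, and every −log10 p was at least 2.00, so weak peaks are included. How reads matching several of the similar protocadherin exons were treated is not given in the sources used here. Members and lists were chosen with earlier results of these data known. Samples were grouped by title; the second H3K9me3 library has another number in its description. Shares of bases covered were computed with Python 3.11.15, numpy 2.4.6 and pandas 2.3.3, between the first and last peak of each chromosome, and plots with matplotlib 3.10.9. H3K4me3 regions are bases shared by both lists, joined; overlap needed 1 bp in both lists of the other target. Bins were tested with limma 3.58.1 in R 4.3.3 (trend, pseudocount of 1 percentage point, bins under 1% mean coverage left out, 11 residual degrees of freedom, Benjamini-Hochberg over all bins). On simulated data it gave 6 false calls (4.29% of calls), with far fewer differing bins than were called in the real data. All H3K4me3 regions of the locus called in both lists are named, as is the strongest peak of each list by q. Alternatives changed the peaks used, the comparison, the quantity, the pseudocount, the filter, the scaling and the replicates.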

Additional observations from a re-analysis of the deposited data

How the results depend on the processing

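Of 77 alternative values, 50 stayed within the spread between replicates (ratios), the Wilson interval (the share of regions) or 1.5 times the count (bins). Another 23 moved further and 4 reversed, and the causes were not tested. With 2 replicates, leaving out 1 always moves a ratio by less than the SD, so those alternatives could only count as staying within the spread. The ratio of H3K27me3 coverage to the genome reversed to 0.687 with peaks of −log10 q of at least 5 and to 0.304 with the 10000 strongest peaks of each list. That of H3K4me3 reversed to 0.358 with the strongest peaks and to 0.610 against the flanks. With the −log10 q of at least 5 the ratio was 6.66 for H3K9me3 and 0.662 for the acetylation marks, and with at least 1.3 it was 0.746 for BRD2. With the strongest peaks it was 3.86 for H3K9me3, 0.460 for H3K36me3, 0.345 for acetylation and 0.668 for BRD2. Against the flanks it was 8.68 for H3K9me3, 3.86 for H3K27me3, 0.103 for H3K36me3, 0.303 for acetylation and 0.353 for BRD2. By number of peaks it was 4.47 for H3K9me3, 1.60 for H3K27me3, 4.38 for H3K4me3 and 0.808 for acetylation. Leaving out each replicate gave 5.30 to 5.64 for H3K9me3, 1.31 to 1.45 for H3K27me3 and 0.854 to 1.03 for BRD2, on both sides of 1. The share of H3K4me3 regions overlapping H3K9me3 was 9.09% with at least 50% covered (0.888% of all regions) and 4.76% with the −log10 q of at least 5 (1.17%). With 1 H3K9me3 list, which can only raise the share, it was 31.8% and 40.9%, against 3.21% and 3.76% of all regions. With the strongest peaks only 4 locus bins were tested, of which 2 had more H3K9me3 and 1 more H3K36me3, against 21.5% and 38.4% of all bins. Bins with less H4K5acK8ac numbered 1 with a pseudocount of 0.1, against 25.7% of all bins. They numbered 1 without H4K5acK8ac replicate 1 or replicate 2, against 6.87% or 3.67%. Leaving out the second H4K8ac library, chosen after seeing the data, gave 12 bins with more H3K9me3, 4 with less H4K5acK8ac and 2 with more H3K36me3. The shares of all bins were 42.3%, 33.4% and 30.6%. With the replicate number as a block the 3 bin counts stayed at 12, 3 and 2, against 41.5%, 30.7% and 30.6% of all bins. Over 55 pairs of targets, same-numbered libraries had correlations of deviations from −0.243 to 0.266, with a median of 0.004 and 4 pairs over 0.1. Such correlations cannot tell whether same-numbered libraries were prepared together.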

Other observations

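H3K9me3 around the H3K4me3 regions of the locus lay more to the side of higher coordinates, the direction in which the printed protocadherin promoters are read. From 0.5 to 2 kb from the region centre, 40.3% and 46.8% of bases were covered on that side in replicates 1 and 2, and 16.2% and 22.4% on the other. The side of higher coordinates had more in both lists at 11 of 22 regions and less in both at 2, while 4 regions had none on either side and 5 gave no common direction. At region 1 this side was 100% and 67.9% covered and the other side was free of H3K9me3. Region 13 had the reverse, with the side of lower coordinates fully covered in both lists and the other at 0% and 29.7%. Over the whole 5 kb to each side the means were closer, 23.9% and 29.8% against 19.6% and 28.0%, with 7 regions higher and 5 lower in both lists. The distance was chosen after the profile was seen, and the difference was not tested.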
